A study of Zea mays with 9 samples.

Results

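This account describes 19 of the 39656 genes in the table that were transcribed in the maize line B73 and low to absent in plants labelled P1-ww714. They were chosen on their CPM, the count of a gene scaled to a library total of 1000000 counts. A gene was taken when its mean over the 3 P1-ww714 libraries was under 2 CPM and each of the 3 B73 libraries was at 1 CPM or more and at 2 or more times the highest P1-ww714 library. The B73 and P1-ww714 values therefore chose the genes and are given as a description that supports nothing further. The 3 libraries of the heterozygote took no part in the choice.

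The study sequenced RNA from maize seedlings aged 14 days, grown under 15 h days, to compare transcript levels between genotypes that differ in copy number. Each genotype had 3 libraries. They were the reference inbred B73, plants with the allele P1-ww714 and the heterozygote of both, P1-ww714/B73. The gene p1 lies on chromosome 1 and encodes a MYB regulator of red phlobaphene pigment. The labels do not state that P1-ww714 plants are homozygous, nor in which inbred background the allele is kept, and the plants behind each library are not described, so p-values measure the spread between libraries, which may be technical. It is known from the study itself, and not from its labels, that the P1-ww714 chromosome carries a duplicated segment that starts at p1.

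Maize lines are known to differ in gene content as well as in sequence, and a gene read well in 1 inbred line can be missing, broken or not transcribed on the chromosome of another. Where an allele is silent because of its own DNA, a plant with 1 active and 1 silent allele commonly carries about 50% of the transcript of a plant with 2 active alleles. Where a shared regulator is lost instead, the heterozygote can lie anywhere between the parents, 50% included. A heterozygote level near 50% therefore does not tell these cases apart. Seedling RNA pools many cell types, and fewer cells of a type and less RNA per cell cannot be told apart.

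Library totals ran from 9486044 to 16189684 counts. The shallowest were P1-ww714/B73 replicate 3 (9486044) and B73 replicate 3 (9668982), in which 1 CPM stands for 9.49 and 9.67 counts. Of the markers of leaf cells examined, the mesophyll gene pep1 stood at 9875 to 13852 CPM and the bundle sheath gene me3 at 3408 to 4862 CPM in all libraries, while the meristem gene kn1 and the root gene rtcs1 were listed at 0 counts throughout. The allele's own gene p1 did not exceed 0.689 CPM in any library and gives no check of the labels at this depth.

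In the RefSeq gene table of Zm-B73-REFERENCE-NAM-5.0, 8 of the 19 genes had a match and 11 had none (42.1% matched, against 59.5% of the 8954 genes with a B73 mean from 1 CPM up to that of the highest of the 19). The 8 matched genes carry only a locus number as a symbol, so no function can be given for them. They comprised 5 protein-coding genes, 2 transcribed pseudogenes and 1 long non-coding RNA. Pseudogenes are broken copies of genes that may still be transcribed. Reads of genes with a near-identical copy may have been split or lost in the counting, so the counts of all 19 are uncertain in that respect.

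**Figure D1:**
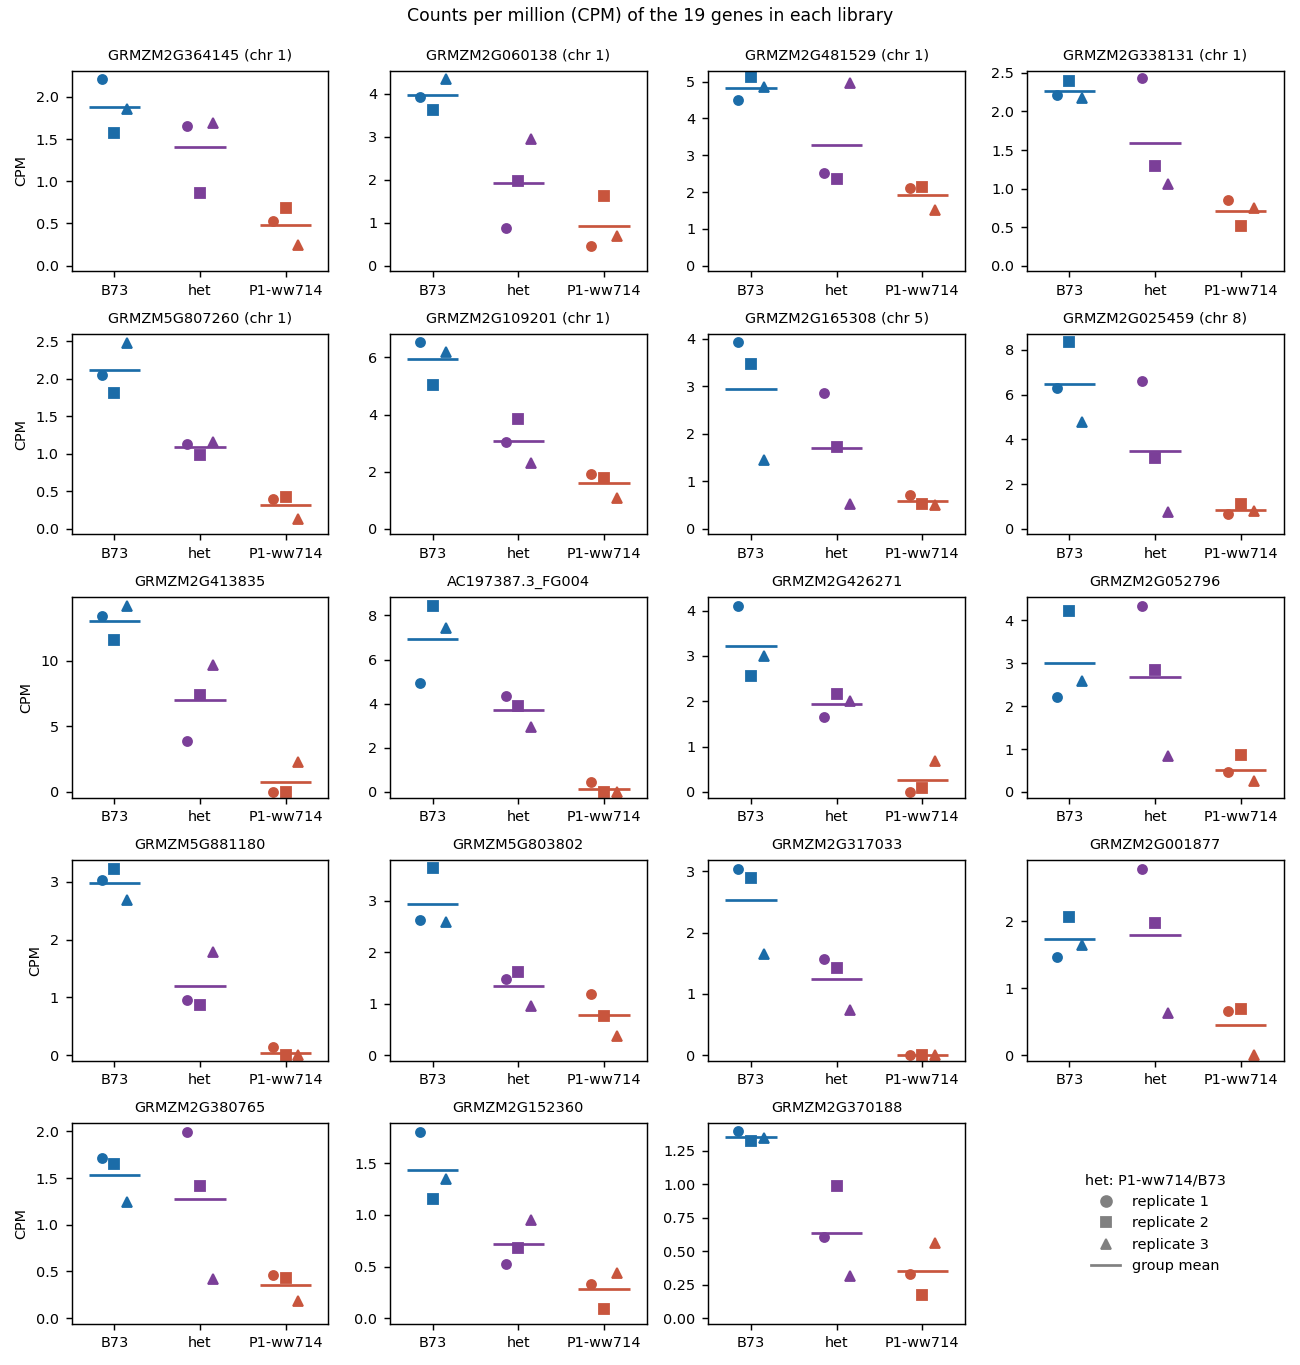
CPM (vertical axis, linear, its own range in each panel) of the 19 genes in the 3 libraries of B73, P1-ww714/B73 (het) and P1-ww714, with circles, squares and triangles for replicates 1, 2 and 3 and a bar at the group mean. All P1-ww714 points lie below all B73 points, as the choice requires, and the heterozygote lies strictly between both parents in 8 of the 19 panels.

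Of the 8 genes that could be placed, 6 lay on chromosome 1, or 75% of placed genes, against 15.9% of the 15703 placed genes that were tested. The share was lower in the larger sets chosen without B73 replicate 3 (9 of 24 placed genes, 37.5%) and without P1-ww714 replicate 1 (7 of 18, 38.9%). Of the 28 tested genes called lower in P1-ww714 than in B73 (edgeR quasi-likelihood test, adjusted p under 0.05), 19 lay on chromosome 1. Of those on chromosome 1, 2 were genes of the set, so a high share on chromosome 1 is not particular to it. The other 2 placed genes of the set were on chromosomes 5 and 8. A run of 131 neighbouring tested genes of chromosome 1, found by their higher level in P1-ww714, is taken here as the duplicated segment. Its edges rest on RNA levels and were not checked against the place of p1 or against copy number. The segment and the set were thus chosen on the same contrast in opposite directions, so that no gene of the set lay inside the segment is partly fixed by the choice. Of the 6 chromosome 1 genes, 5 lay before the segment, at 226, 154, 123, 66 and 2 tested genes from its edge, and 1 lay after it, at 2 tested genes from the other edge. The gene at 66 matched more than 1 locus of chromosome 1 and was placed by the first. When the genes of the set were left out of the search, the same 131 genes were found, and the alternate positions not used before gave 125 genes, with the nearest genes of the set at 5 from either edge. All 6 thus fell within 300 tested genes of the segment, a stretch that with the segment holds 4.66% of the placed tested genes. The order of genes is that of the assembly named above, which may not be the one used for counting, and no test of the clustering was made. Of the 6, 1 was left when the rule asked for B73 levels at least 4 times the highest P1-ww714 library. That setting kept 6 of the 19 genes, of which 2 were placed.

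**Figure D2:**
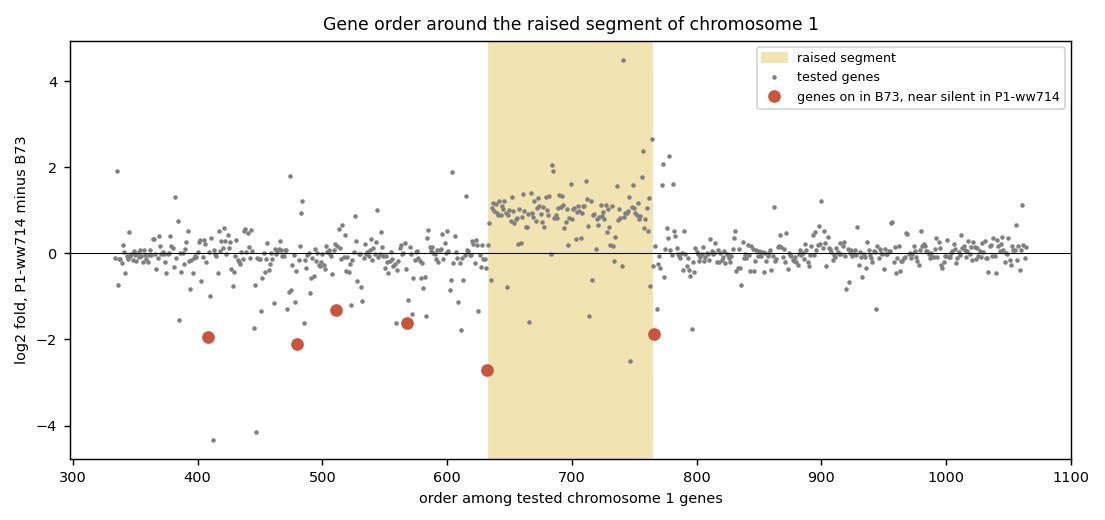
Log2 fold of P1-ww714 minus B73 (vertical axis) against the order of tested genes along chromosome 1 (horizontal axis), for the raised segment (shaded) and 300 tested genes on each side. Large points mark the 6 genes of the set on chromosome 1, of which 5 lie before the shaded 131 genes and 1 after them, and small points are the other tested genes.

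The chromosome 1 gene nearest to the front edge was GRMZM5G807260, a protein-coding gene. It had 2.05, 1.82 and 2.48 CPM in B73, 1.13, 0.988 and 1.16 CPM in the heterozygote, and 0.393, 0.427 and 0.125 CPM in P1-ww714. The 3 groups did not overlap, and the heterozygote libraries were close together at 51.6% of the B73 mean. The fitted log2 fold of the heterozygote against B73 was -0.90 with a standard error of 0.32, and its 95% interval ran from 32.7% to 88.3% of B73.

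At the far edge, the protein-coding gene GRMZM2G109201 showed the same order of groups. Its levels were 6.56, 5.04 and 6.21 CPM in B73, 3.04, 3.83 and 2.32 CPM in the heterozygote, and 1.90, 1.79 and 1.06 CPM in P1-ww714. Again no libraries of different groups overlapped, and the heterozygote mean was 51.6% of that of B73 (95% interval of the fitted fold 37.1% to 81.0%). In P1-ww714 it kept 26.7% of the B73 level, so it was reduced and not off.

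GRMZM2G060138, protein-coding and 154 genes before the segment, had 3.93, 3.63 and 4.34 CPM in B73, 0.869, 1.98 and 2.95 CPM in the heterozygote, and 0.459, 1.62 and 0.689 CPM in P1-ww714. The heterozygote mean was 48.7% of B73, but replicate 1 lay below the highest P1-ww714 library. GRMZM2G338131 matched more than 1 locus of chromosome 1 and was placed by the first. This gene, protein-coding and 66 genes before the segment, had 2.21, 2.39 and 2.17 CPM in B73, 2.43, 1.30 and 1.05 CPM in the heterozygote, and 0.853, 0.513 and 0.752 CPM in P1-ww714. Here replicate 1 of the heterozygote was above every B73 library, while the other two lay between the parents.

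The 2 transcribed pseudogenes were also on chromosome 1. GRMZM2G481529 had 4.51, 5.12 and 4.86 CPM in B73, 2.52, 2.35 and 4.95 CPM in the heterozygote, and 2.10, 2.14 and 1.503 CPM in P1-ww714. Its P1-ww714 mean, 1.91 CPM, was the closest of the set to the limit of 2, and replicate 3 of the heterozygote stood at the B73 level. GRMZM2G364145, the farthest of the 6 from the segment, had 2.21, 1.57 and 1.86 CPM in B73, 1.65, 0.865 and 1.69 CPM in the heterozygote, and 0.525, 0.683 and 0.251 CPM in P1-ww714. Its heterozygote mean was 74.5% of B73, above every P1-ww714 library and overlapping B73.

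The genes next to the placed genes did not, on the median, share their low level. Over the 5 tested genes on each side of each placed gene, the median log2 fold of P1-ww714 minus B73 lay between -0.21 and 0.11. Of these 80 neighbours, the edgeR quasi-likelihood test called 5 lower, against 0.124% of genes tested, and 7 higher, against 0.652% (adjusted p under 0.05), and 41 had a fitted fold below 0. None of the 8 placed genes had another of the set among those neighbours. All 5 lower calls were neighbours of genes before the segment on chromosome 1. Of the 7 higher calls, 5 were neighbours of the genes beside the edges of the segment.

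Both genes placed on other chromosomes had heterozygote libraries spread over the whole range between the parents. GRMZM2G025459, a protein-coding gene of chromosome 8, had 6.31, 8.34 and 4.76 CPM in B73 and 0.656, 1.11 and 0.814 CPM in P1-ww714. The heterozygote had 6.61, 3.15 and 0.738 CPM, from 76, 51 and 7 counts. Replicate 1 was thus at the B73 level and replicate 3 at the P1-ww714 level, and the mean of 54.1% of B73 describes neither.

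GRMZM2G165308, a long non-coding RNA of chromosome 5, had 3.93, 3.47 and 1.45 CPM in B73, 2.87, 1.73 and 0.527 CPM in the heterozygote, and 0.721, 0.513 and 0.501 CPM in P1-ww714. Replicate 3 was the lowest library in B73 and in the heterozygote, and in the heterozygote it lay within the P1-ww714 range. This gene was the closest to the limit on the ratio, with its lowest B73 library at 2.01 times the highest P1-ww714 library.

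Among the 11 genes without a match, 5 came nearest to full loss in P1-ww714, with at least 1 library at 0 counts and a heterozygote that overlapped neither parent. GRMZM2G317033 had no count in any P1-ww714 library. It had 37, 35 and 16 counts in B73 (3.03, 2.89 and 1.65 CPM) and 18, 23 and 7 counts in the heterozygote (1.56, 1.42 and 0.738 CPM). Against a floor of 3 counts over the P1-ww714 group, B73 was at least 37.0-fold higher and the heterozygote at least 18.5-fold higher. The heterozygote mean was 49.1% of B73.

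GRMZM5G881180 had 2 counts over the P1-ww714 libraries, against 37, 39 and 26 in B73 and 11, 14 and 17 in the heterozygote. In CPM these were 3.03, 3.22 and 2.69 in B73 and 0.956, 0.865 and 1.79 in the heterozygote. The ratio of the heterozygote to P1-ww714 was 24.2 with an exact 95% counting interval of 6.31 to 206.7, which covers counting error only. At 40.4% of B73, its heterozygote mean was the lowest percentage of the 19.

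AC197387.3_FG004 had 4.92, 8.42 and 7.45 CPM in B73 and 4.35, 3.89 and 2.95 CPM in the heterozygote (53.8% of B73). In P1-ww714 all 7 counts came from replicate 1. GRMZM2G413835 had 13.4, 11.6 and 14.2 CPM in B73, 3.91, 7.41 and 9.70 CPM in the heterozygote, and 0, 0 and 36 counts (2.26 CPM) in P1-ww714. A single P1-ww714 library therefore carried every count of that genotype for both genes.

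GRMZM2G426271 had 4.10, 2.56 and 2.999 CPM in B73, 1.65, 2.16 and 2.003 CPM in the heterozygote, and 0, 1 and 11 counts in P1-ww714. Its heterozygote libraries were alike, at 60.2% of B73, and overlapped neither parent. GRMZM2G152360, with 1.80, 1.16 and 1.34 CPM in B73 and 0.522, 0.679 and 0.949 CPM in the heterozygote, also lay strictly between the parents, at 49.96% of B73, over 0.328, 0.0854 and 0.439 CPM in P1-ww714. Its lowest B73 library was the closest of the set to the limit of 1 CPM.

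In 3 of the unmatched genes the heterozygote mean was above 75% of B73 and was carried by replicates 1 and 2. GRMZM2G052796 had 2.21, 4.21 and 2.59 CPM in B73, 4.35, 2.84 and 0.843 CPM in the heterozygote, and 0.459, 0.854 and 0.251 CPM in P1-ww714. GRMZM2G001877 had 1.48, 2.06 and 1.65 CPM in B73, 2.78, 1.98 and 0.633 CPM in the heterozygote, and 0.656, 0.683 and 0 CPM in P1-ww714. GRMZM2G380765 had 1.72, 1.65 and 1.24 CPM in B73, 1.999, 1.42 and 0.422 CPM in the heterozygote, and 0.459, 0.427 and 0.188 CPM in P1-ww714. In all 3, heterozygote replicate 1 exceeded every B73 library and replicate 3 lay below the highest P1-ww714 library.

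The remaining unmatched genes had heterozygote means below 50% of B73. GRMZM5G803802 had 2.62, 3.63 and 2.59 CPM in B73, 1.48, 1.61 and 0.949 CPM in the heterozygote, and 1.18, 0.769 and 0.376 CPM in P1-ww714. GRMZM2G370188 had 1.39, 1.32 and 1.34 CPM in B73, 0.608, 0.988 and 0.316 CPM in the heterozygote, and 0.328, 0.171 and 0.564 CPM in P1-ww714. In both, all heterozygote libraries were below B73 and replicate 3 overlapped P1-ww714.

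Across the 19 genes, the heterozygote mean ran from 40.4% to 103.8% of the B73 mean with a median of 53.8%, and 12 genes lay between 40% and 60%. P1-ww714 itself stood at 0% to 39.6% of B73, with a median of 19.8%. With the P1-ww714 mean taken off both, the median was 47.7%. The median over genes was 53.4% in replicate 1 of the heterozygote, 56.3% in replicate 2 and 42.6% in replicate 3.

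Because the B73 libraries were required to be high and the P1-ww714 libraries low, part of the distance from the heterozygote to each parent is fixed by the choice, and the following counts are a description. Every heterozygote library was below every B73 library in 11 of the 19 genes, against 4.66% of the 22544 genes tested. Every heterozygote library was above every P1-ww714 library in 11 genes, against 2.37% of genes tested. Both held in 8 genes, against 0.222% of genes tested.

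**Figure D3:**
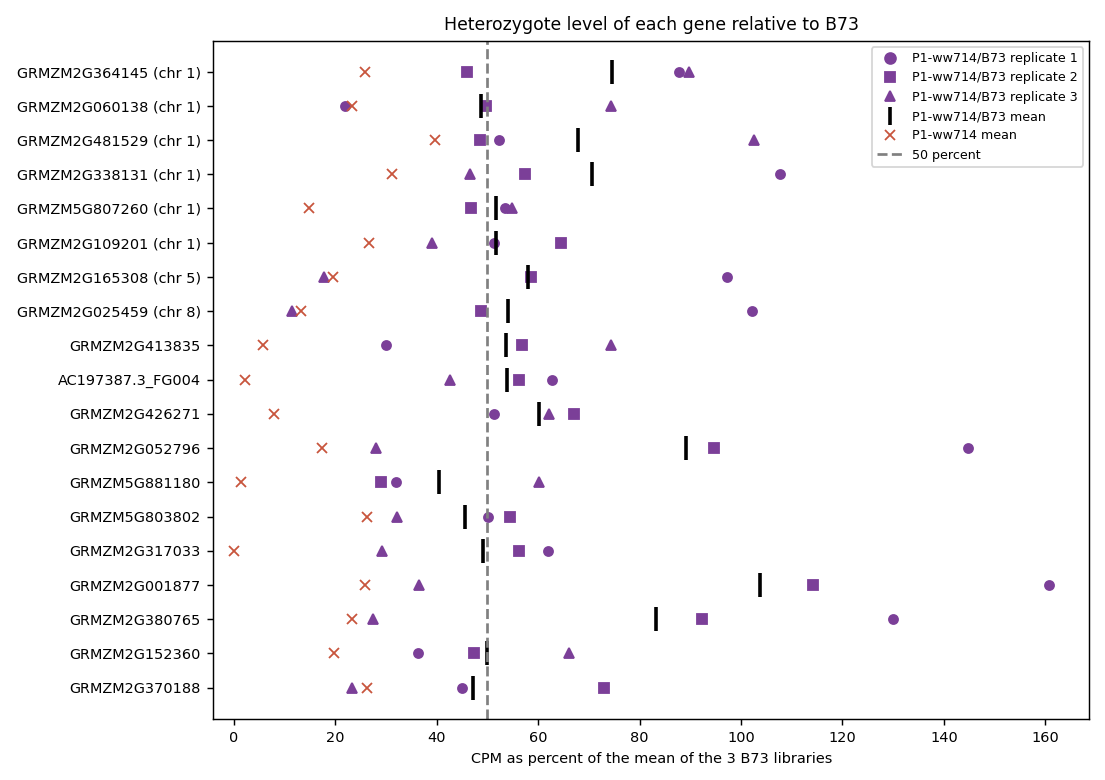
Level in each heterozygote library (purple symbols), their mean (black bar) and the P1-ww714 mean (cross) as a percentage of the mean of the 3 B73 libraries (horizontal axis), for each of the 19 genes. The dashed line is at 50%, and the means of 12 genes lie between 40% and 60%, while single libraries run from 11.4% to 160.7%.

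Over the 22544 genes tested with edgeR, no gene of the set was called lower in the heterozygote than in B73, as was no gene of the genome (0%), and the lowest adjusted p of the 19 was 0.957, for GRMZM2G109201. DESeq2 also called none of the 19, and none of the 29742 genes it adjusted (0%). At an unadjusted p under 0.05, 7 of the 19 were lower, against 1.14% of genes tested, an excess that the choice of high B73 values partly fixes. The fitted fold was below 0 in 18 of 19, against 50.4% of genes tested, which the same choice also partly fixes. The exception was GRMZM2G001877 (log2 fold 0.14, standard error 0.61). The median log2 fold of the 19 was -0.83, and that of all tested genes was -0.001.

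The 95% intervals of this fold held 50% of B73 in all 19 genes and held the B73 level itself in 12 of them. The choice of high B73 values moves these intervals down in part, so they are a description. The 7 whose interval lay below the B73 level were GRMZM2G109201, GRMZM2G060138, GRMZM5G807260, GRMZM5G881180, GRMZM5G803802, GRMZM2G317033 and GRMZM2G152360. They are the same 7 that had an unadjusted p under 0.05 in edgeR, so the intervals add nothing to that count. At this depth the intervals were wide. For GRMZM2G001877 the interval ran from 43.7% to 278.4% of B73, and for GRMZM2G413835 from 20.9% to 146.5%, so for most single genes a level of 50% and an unreduced level could not be told apart. Without single libraries, and with the same 19 genes kept, 16 to 19 of the 19 intervals held 50%.

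**Figure D4:**
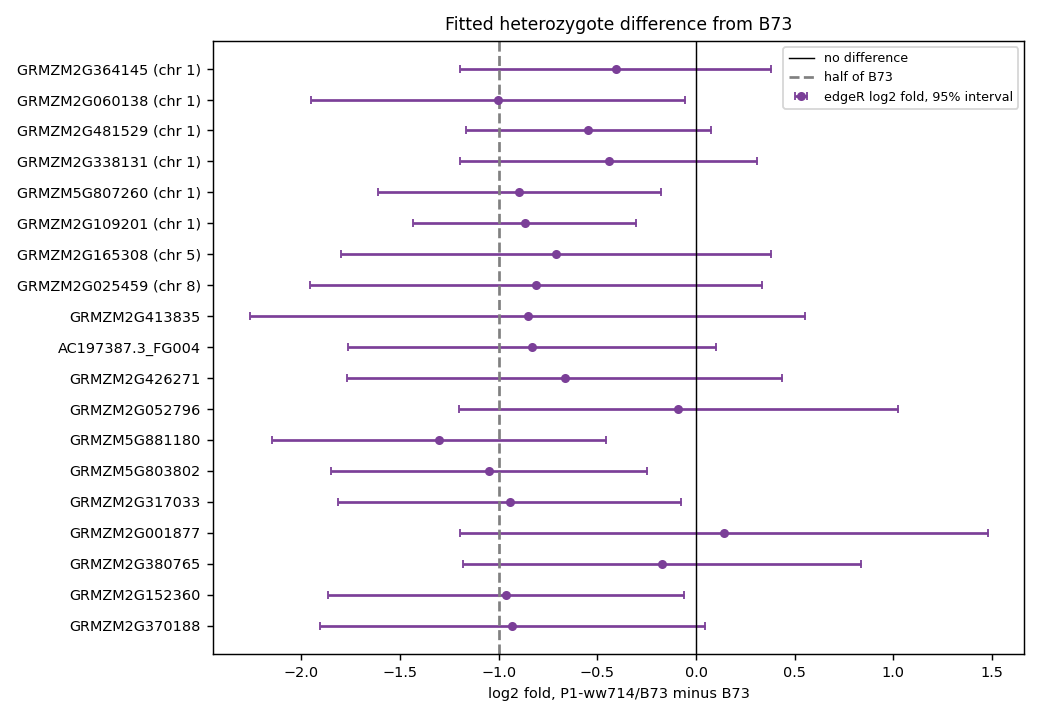
Fitted log2 fold of P1-ww714/B73 minus B73 (horizontal axis) with its 95% interval from edgeR for each of the 19 genes. The dashed line at -1 is 50% of B73 and the solid line at 0 is no difference. All 19 intervals cross the dashed line and 12 cross the solid line. The choice of high B73 values moves the intervals down in part.

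Against P1-ww714, the heterozygote had a higher fitted level in 19 of 19 genes, against 48% of genes tested. No gene passed the edgeR test in this direction, in the set or in the genome (0%), and the lowest adjusted p of the set was 0.228, shared by AC197387.3_FG004, GRMZM5G881180 and GRMZM2G317033. At an unadjusted p under 0.05, 17 of the 19 were higher, against 1.28% of genes tested, an excess that the choice of low P1-ww714 values partly fixes. DESeq2 called 4 of the 19 higher, against 0.0411% of the 26737 genes it adjusted, namely AC197387.3_FG004, GRMZM2G426271, GRMZM5G881180 and GRMZM2G317033. The same choice partly fixes this DESeq2 count and the 19 of 19 fitted levels, so both are a description. The edgeR outcome turned on a lone library for 2 of the 3 genes whose P1-ww714 counts came from 1 library. AC197387.3_FG004 had an adjusted p of 0.0437 without P1-ww714 replicate 1, and GRMZM2G413835 of 0.0166 without P1-ww714 replicate 3, with no count then left in that genotype. For GRMZM5G881180 it was 0.5003 without P1-ww714 replicate 1.

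P1-ww714 against B73 is the contrast that chose the genes. In it 6 of the 19 passed the edgeR threshold, against 0.124% of genes tested, and DESeq2 called 15, against 0.352% of the genes it adjusted. Nothing is read from these counts.

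The heterozygote libraries differed from each other, and not alike for the 6 genes placed on chromosome 1 and the other 13, of which 11 have no known place. In replicate 3, 7 of the 13 genes that were not placed on chromosome 1 lay at or below the highest P1-ww714 library, and 0 of the 6 on chromosome 1 did. In replicate 1 this held for 0 of the 13 and 1 of the 6, and in replicate 2 for 0 of the 13 and 0 of the 6. The median of those 13 genes was 62.0% of B73 in replicate 1, 56.8% in replicate 2 and 32.2% in replicate 3. For the 6 chromosome 1 genes the medians were 52.8%, 49.2% and 64.6%. The 7 genes at or below the highest P1-ww714 library had 3 to 9 counts in heterozygote replicate 3. The share of all genes tested with such an overlap was not computed. The split by place was seen in the data and was not tested. Replicate 3 of the heterozygote was the shallowest library, and the part of depth in this was not tested.

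B73 replicate 3, the next shallowest library, decided the size of the set. Without it the rule chose 60 genes, all 19 among them. In the 41 genes gained, the median was 2.13 and 2.06 CPM in B73 replicates 1 and 2 and 0.827 CPM in replicate 3, and it was 1.39, 1.30 and 0.527 CPM in heterozygote replicates 1, 2 and 3. In P1-ww714 it was 0.590, 0.683 and 0.251 CPM. Replicate 3 was thus the lowest library of each genotype by this median, and in B73 this is fixed, as these genes were kept out of the set by that library. Of the 16 that were placed, 3 were on chromosome 1. Deviations from the group means over all tested genes correlated at 0.50 between B73 replicate 3 and heterozygote replicate 3, the highest value among pairs of libraries from different groups.

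A library left out of the choice gives a level that the choice did not fix. With B73 replicate 1 left out, 26 genes were chosen, and their median in that library was 2.42 CPM against 2.37 CPM in the other B73 libraries. With B73 replicate 2 left out, 26 genes were chosen, at 2.48 CPM against 2.30 CPM. With replicate 3 left out the 60 genes stood at 1.34 CPM against 2.26 CPM. The median heterozygote level was 67.7% of B73 replicate 1, 61.4% of replicate 2 and 107.0% of replicate 3 when each was the library left out, over these larger sets, all above the 53.8% of the 19 genes.

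For P1-ww714 the left-out library was higher than the others in each case. The medians were 0.853 CPM against 0.538 CPM for replicate 1 (33 genes chosen), 0.683 against 0.450 CPM for replicate 2 (23 genes) and 0.689 against 0.496 CPM for replicate 3 (25 genes). It was below every B73 library in 30 of 33, 23 of 23 and 25 of 25 genes. The choice of high B73 values partly fixes these counts, and the share over all genes tested was not computed.

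The set has no sharp edge. Just outside the limit on the P1-ww714 mean were GRMZM2G311182 (2.55 CPM), GRMZM2G105362 (3.24 CPM) and GRMZM2G149624 (3.59 CPM), and just inside were GRMZM2G481529 (1.91 CPM), GRMZM2G109201 (1.59 CPM) and GRMZM2G060138 (0.924 CPM). On the lowest B73 level, GRMZM5G847302 (0.991 CPM), GRMZM5G860241 (0.991 CPM) and GRMZM5G876389 (0.820 CPM) fell short, and GRMZM2G152360 (1.16 CPM), GRMZM2G380765 (1.24 CPM) and GRMZM2G370188 (1.32 CPM) were the closest inside. On the ratio of the lowest B73 to the highest P1-ww714 library, GRMZM2G105173 (1.97), GRMZM2G019567 (1.95) and GRMZM2G317069 (1.76) fell short, and GRMZM2G165308 (2.01), GRMZM2G481529 (2.11) and GRMZM2G001877 (2.16) were inside. A ratio of at least 4 left 6 of the 19 genes.

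The same rule applied to other pairs of genotypes gave the following counts. It found 20 genes on in P1-ww714 and near silent in B73, of which 2 were placed and 1 lay on chromosome 1. It found 0 genes on in B73 and near silent in the heterozygote and 13 in the reverse direction. It found 2 genes on in the heterozygote and near silent in P1-ww714 and 2 in the reverse direction. These counts share libraries and were not tested against each other.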

How the data were processed

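RNA was extracted by the authors from seedlings of 3 genotypes, 3 libraries each, per the labels' protocols. The deposited table holds raw counts per gene, and TopHat and HTSeq are named in the submitters' processing notes without versions. The sources used here name no build, annotation or strand setting. Columns were mapped to samples by name. The 19 genes, the rule, the tests and the lists were chosen with earlier results of these data known.

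CPM was computed from column sums. The edgeR 4.0.16 quasi-likelihood test (R 4.3.3, TMM scaling, filterByExpr with a minimum count of 10, 22544 genes kept, all 9 libraries, Benjamini-Hochberg adjustment at 0.05) gave folds. All 19 genes passed the filter, through their B73 levels. Standard errors and 95% intervals came from the fold and its F value. DESeq2 1.42.0 was an alternative. The procedure was tested on simulated counts with 200 changed genes. The segment was the stretch of chromosome 1 whose alternate tested genes gave the highest summed log2 fold. Extreme folds were first limited, and 0.5 was taken off each. Names and gene order came from the reference table, which matched 18775 identifiers (47.3%). Start coordinates of that table were used only to order the genes, and sequences were not used. Same-numbered libraries were not taken as pairs. Genes were named by being in the set or just outside a limit of the rule. DESeq2 and leaving out libraries were among the alternatives, with other scalings, filters, thresholds and the replicate block.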

Additional observations from a re-analysis of the deposited data

How the results depend on the processing

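The rule gave 11 genes with each B73 library at 2 CPM or more, 6 with a ratio of at least 4, and 23 to 60 without single B73 or P1-ww714 libraries, with B73 replicate 3 left out giving the 60 and P1-ww714 replicate 1 left out giving 33. Of the genes on chromosome 1, 6 in the set, 1 was left at the ratio of 4 (an alternative chosen after seeing the data), where 2 genes were placed. Without single libraries, 6 to 9 were found on chromosome 1, or 37.5% to 81.8% of placed genes. Genes lower in P1-ww714 than in B73 numbered 6, and 10 without an expression filter, 15 with DESeq2, 11 with only both groups in the fit, 10 without P1-ww714/B73 replicate 1, 11 without P1-ww714/B73 replicate 3, and 5 to 11 over all single libraries left out. Genes higher in P1-ww714/B73 than in P1-ww714 numbered 0, and 4 with DESeq2 and 0 to 1 without single libraries. Genes lower in P1-ww714/B73 than in B73 numbered 0 under every alternative run, while 7 had an unadjusted p under 0.05 in edgeR. The causes were not tested. With the same 19 genes kept, the median heterozygote level was between 52.0% and 59.1% of B73 without single libraries, and 8 to 11 genes lay between the parents. These genes were chosen with all B73 and P1-ww714 libraries, so part of this stability is fixed by the choice. Against a B73 library left out of the choice, the median was 67.7%, 61.4% and 107.0% for replicates 1, 2 and 3, over larger sets. With the replicate number as a block the calls were 0 against B73, 0 against P1-ww714 and 9 for P1-ww714 against B73. The share of all genes called was computed only for the main edgeR fit and for DESeq2. Nothing is read from the counts for P1-ww714 against B73, the contrast that chose the genes. Whether the numbers pair the libraries could not be settled from correlations. Of 9 same-numbered pairs, 4 had a correlation over 0.1, the highest at 0.50. Of 9 samples, 1 correlated best with its own number in both other groups. Counts of 0 to 164 per gene and library limit every value.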
